A study of Oryza sativa Indica Group with 36 samples.

Results

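The cold-tolerant rice line DC907 was examined 1 day after the end of a 3-day cold treatment. The data were the raw counts of 6 of the 36 libraries of the series: the 3 libraries labelled BT3H1 and the 3 libraries of the uncooled control BCK. The libraries were chosen by these labels alone. In the series, RNA was sequenced from the aerial parts of hydroponic seedlings of DC907 and of 9311, a near-isogenic line that is not cold tolerant, in 12 groups of 3 biological replicates. BT3H1 plants were held at 8 °C for 3 days and then kept at room temperature for 1 day, whereas BCK plants were not cooled. Both groups are DC907 without a transgene, and the seeds of all groups had been soaked in the fungicide carbendazim before germination. DC907 is a single line, so the values describe this genetic background. The study ran its controls alongside the treatments, but BCK is 1 group and the sources used here do not say at which of the collection times it was taken. A difference in plant age between BT3H1 and BCK therefore cannot be told apart from the treatment.

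Further DC907 groups and the groups labelled 9311 were set beside BT3H1. BT1 and BT3 plants were collected at the end of 1 and 3 days at 8 °C. BT3H3 plants were collected after 3 days of recovery from the 3-day cold, and BT1H1 and BT1H3 plants 1 or 3 days after a cold treatment of 1 day. AT3H1 and ACK carry the labels of 9311 and correspond to BT3H1 and BCK. AT1, AT3 and AT1H1, also labelled 9311, correspond to BT1, BT3 and BT1H1.

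Chilling of rice seedlings is known to raise cytosolic calcium and reactive oxygen species and to switch on genes of abscisic acid signalling, sugar metabolism and antioxidant defence. Rewarming ends the chilling signal, and growth has to be resumed while damaged proteins and membranes are replaced. Ubiquitin transferases mark proteins for turnover. Genes of auxin response, polyamine oxidation and starch breakdown are also described below, and a part of theirs in regrowth was not tested.

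The identifiers of the deposited tables belong to the indica genome, and none was found in the available reference table, which holds the japonica genome. Names were therefore taken from the study's text and figures for 30 genes, and 9 further genes of its list stayed without a name. No coordinates were used here. The labelled tissue was not checked against leaf or stem markers, because the tables pair no marker with a name. For genes whose transcript a reader may want to locate, the study's qRT-PCR primers fix the sequence, and 14 pairs were read from its primer list. The pairs shown belong to the 2 called genes with primers (BGIOSGA002927, an auxin-responsive protein, and BGIOSGA014600, without a name). They also include those of SAPK2 and a beta-amylase, named genes whose BT3H1 and BCK values did not overlap. BGIOSGA026730, without a name, has primers and no overlap too, and its pair is not shown. All are written 5′ to 3′, and no base is set in capitals because the whole primer is the annealing part.
BGIOSGA002927 forward: accttgcctcgtcgtcgtcatc
BGIOSGA002927 reverse: ttgctcgccttgtcgccgtt
BGIOSGA014600 forward: agacggaggtggactgcgagtt
BGIOSGA014600 reverse: ttcatgtagaggtgcggcgagac
BGIOSGA026164 (SAPK2) forward: gatgtgcggaccaaggagctgtt
BGIOSGA026164 (SAPK2) reverse: caatgttcggatgcctcagtgacct
BGIOSGA011829 (beta-amylase) forward: ggtactcgcagatgctcctggaac
BGIOSGA011829 (beta-amylase) reverse: cgtcgtggtgcctcgtgttgta
These 8 primers were 20 to 25 bases long. Their sites in the genome were not searched for, since no indica genome was used.

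The 6 libraries held 16349662 to 17917900 counts on genes, within the 10176660 to 18789555 of the whole series, and the BT3H1 and BCK totals overlapped. Expression levels are given as FPKM, the fragments counted on a gene scaled by its length and by the total of the library. The control libraries differed more among themselves than the recovered ones. The correlation between 2 libraries over the genes tested was 0.821 to 0.865 within BCK and 0.914 to 0.939 within BT3H1. The median SD of log2(FPKM + 0.1) was 0.57 in BCK and 0.293 in BT3H1. Of 78 genes that separated the 9311 and DC907 libraries of the uncooled and 1-day groups, 96.2% to 98.7% were nearer to DC907 in the BT3H1 libraries. The same 78 genes were nearer to DC907 in 82.1% to 96.2% of cases in the libraries labelled AT3H1, against that label, so values of AT3H1 are given as of the libraries so labelled. For BCK the markers were chosen without it, and 74.1%, 92.6% and 73.1% of 108 genes lay nearer to DC907 in its replicates 1, 2 and 3.

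A principal component analysis was used to place BT3H1 among the DC907 libraries. The first component separated the cold groups from all others and took 36.9% of the variance. The 3 BT3H1 libraries lay together at 56.6 to 63.3 on this component, on the side of the other recovery groups, whereas the BT3 libraries lay between -163.2 and -124.5. On the second component, with 16.4% of the variance, BT3H1 lay between -51.9 and -4.18 and BCK between 79.7 and 203.6. On the first component BCK replicates 1, 2 and 3 lay at 54.5, -16.5 and 3.13. Replicate 1 was thus near BT3H1 there, and replicates 2 and 3 lay between BT3H1 and the cold groups. BT3H1 lay away from the cold groups on the first component and apart from the control on the second. BCK replicate 3 stood farthest from all other libraries.

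**Figure D1:**
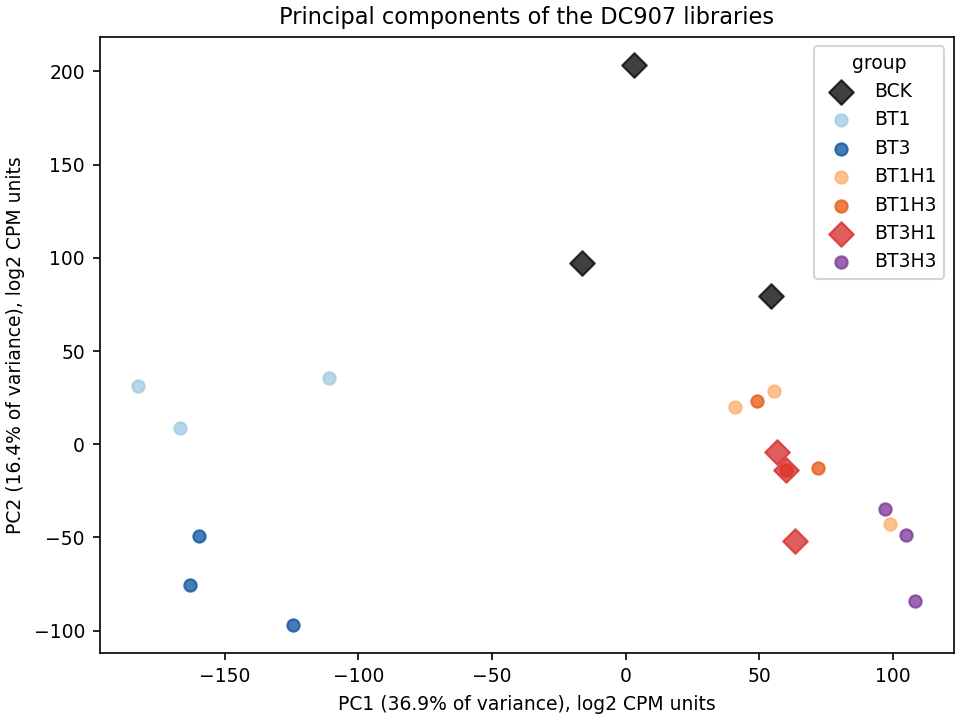
First against second principal component of log2 CPM for the 21 DC907 libraries, each point 1 library coloured by group, with BCK and BT3H1 as diamonds. The BT3H1 libraries sit among the recovery groups at 56.6 to 63.3 on the first component, and the BCK libraries spread from 79.7 to 203.6 on the second.

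Gene expression 1 day into recovery differed from the uncooled state in both directions. In BT3H1 22080 genes reached a mean FPKM of 1, as did 21708 in BCK, of 43254 genes listed. With edgeR's quasi-likelihood test and Benjamini-Hochberg adjustment, 1714 of 23155 tested genes were differentially expressed genes (DEGs) at an adjusted p under 0.05, which is 7.40% of the genes tested. Of these 819 were upregulated (3.54%) and 895 were downregulated (3.87%), and 7441 genes had an unadjusted p under 0.05. The count depended on single libraries. It was 582 without BCK replicate 3 and 3080 without BCK replicate 2. Without any 1 of the 3 BT3H1 libraries edgeR called 0 genes, with 4686 to 5399 genes at an unadjusted p under 0.05, while DESeq2 called 2798 to 3688. On all 6 libraries DESeq2 called 5840 genes. Fold changes are on the TMM scale, where the median log2 fold change of all tested genes was -0.05. With library totals alone that median was 0.35, and 1921 genes were upregulated and 709 downregulated, so the share of upregulated DEGs rested on the scaling.

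**Figure D2:**
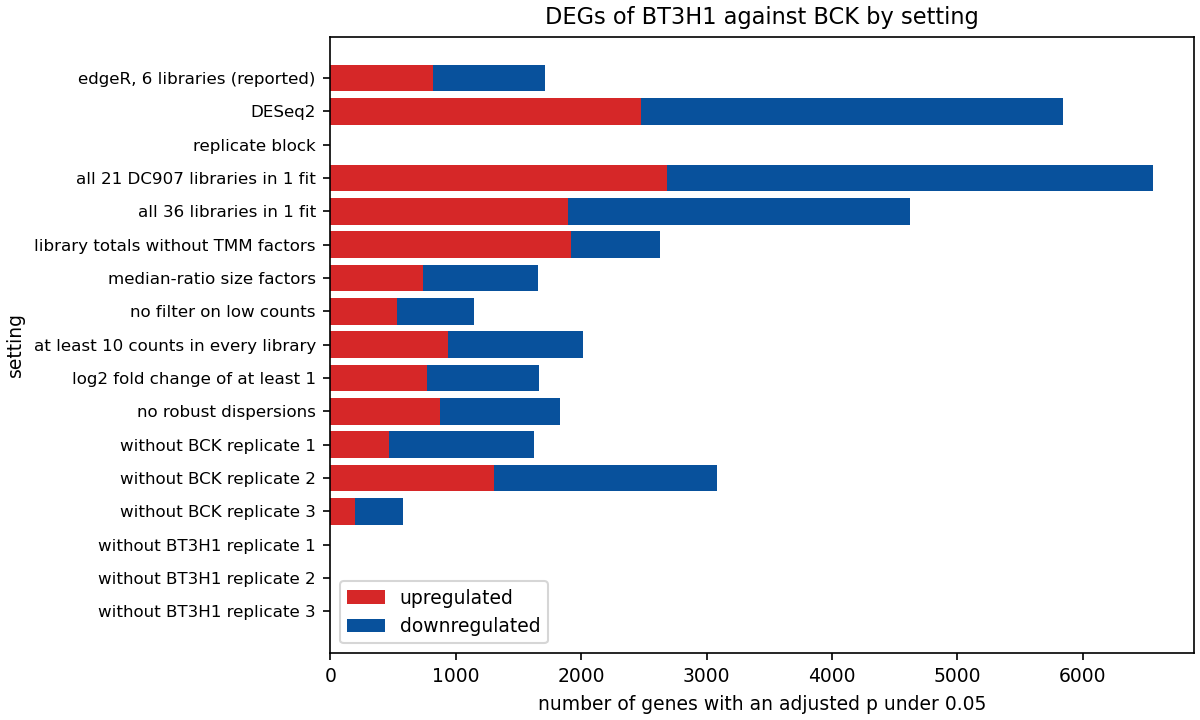
Number of DEGs of BT3H1 against BCK (horizontal axis, red upregulated and blue downregulated) under the reported setting and each alternative (vertical axis). The reported 1714 DEGs became 5840 with DESeq2 and 0 in edgeR when any BT3H1 library was left out.

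The downregulated genes held a larger share of the counts in the uncooled plants than the upregulated genes did in the recovered ones. Together they made up 14.7% to 26.0% of all counts in the 3 BCK libraries and 3.27% to 3.97% in the BT3H1 libraries. The upregulated genes rose from 1.06% to 1.60% of the counts in BCK to 5.68% to 6.67% in BT3H1. These shares describe genes chosen by the same contrast and are no test of it. The median log2 fold change was 1.97 for the upregulated genes (398 of them at 2 or more) and -2.39 for the downregulated genes (612 at -2 or less). With the 16 upregulated genes at 0 counts in all BCK libraries and the 7 downregulated genes at 0 in all BT3H1 libraries set to a floor of 3 counts a library, the medians were 1.97 and -2.38. DEGs were more frequent among abundant genes, with abundance taken as the larger of the BCK and BT3H1 mean FPKM. The same libraries made the call, so this trend is not independent of it, and the part of count depth was not tested. Of the genes with an FPKM of 60 or more in the higher group 13.7% were called, with 210 upregulated and 393 downregulated, and of those under 1 only 1.31%. Genes predicted by the study from its reads were upregulated in 3.47% of 1527 cases and annotated genes in 3.54% of 21628. Downregulated were 2.69% of the predicted and 3.95% of the annotated genes.

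The unnamed genes with the smallest p values showed changes of large size in every library. Novel01988, a gene predicted from the reads, had an FPKM of 0.178, 0.276 and 0.378 in BCK and of 30.4, 23.8 and 20.8 in BT3H1. Its log2 fold change was 6.07 ± 0.38 (SE, adjusted p = 0.0165, edgeR). BGIOSGA025476 measured 2.13, 2.51 and 2.80 in BCK and 110.4, 186.3 and 188.8 in BT3H1, a log2 fold change of 5.63 ± 0.36 (adjusted p = 0.0165, edgeR). Both were low in all BCK libraries and high in all BT3H1 libraries. BGIOSGA011858 went the other way, from an FPKM of 152.7, 175.9 and 191.1 in BCK to 22.5, 25.2 and 20.97 in BT3H1 (log2 fold change -3.33 ± 0.21, adjusted p = 0.0165, edgeR). BGIOSGA011958 measured 84.5, 88.0 and 75.3 in BCK and 10.9, 9.16 and 8.00 in BT3H1 (log2 fold change -3.55 ± 0.27, adjusted p = 0.0165, edgeR). A small p and no overlap between BCK and BT3H1 were conditions for picking these 4 genes, so neither is a test of them. In edgeR fits without a BT3H1 library their adjusted p lay above 0.05. The low BCK levels were not shared by ACK, where BGIOSGA025476 measured 314.2 ± 217.9 FPKM and Novel01988 6.12 ± 3.93 (SD, n = 3). In AT3H1 against ACK the log2 fold change of BGIOSGA025476 was negative, at -2.14 ± 1.02 (adjusted p = 0.178, edgeR). Those of Novel01988, BGIOSGA011858 and BGIOSGA011958 were 2.88, -3.10 and -3.06, with the same signs as in BT3H1 against BCK.

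The levels of the DEGs in groups that had not chosen them were then described. The median FPKM of the upregulated genes was 5.14 in BCK and 27.0 in BT3H1, and in the other recovery groups it was 19.3 in BT1H1, 14.5 in BT1H3 and 20.4 in BT3H3. In the cold groups BT1 and BT3 it was 7.27 and 9.13. In the groups that had not chosen them, the upregulated genes were thus higher in recovery than in the cold. The downregulated genes had a median FPKM of 45.5 in BCK, 26.1 in BT1, 15.9 in BT3, 13.0 in BT3H1 and 14.4 in BT3H3. After the 1-day cold it was 17.8 in BT1H1 and 23.5 in BT1H3. The BT3 level was thus near that of BT3H1, whereas BT1H1 lay below BT1. Over all tested genes the median lay between 10.3 and 14.1 in the DC907 groups.

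**Figure D3:**
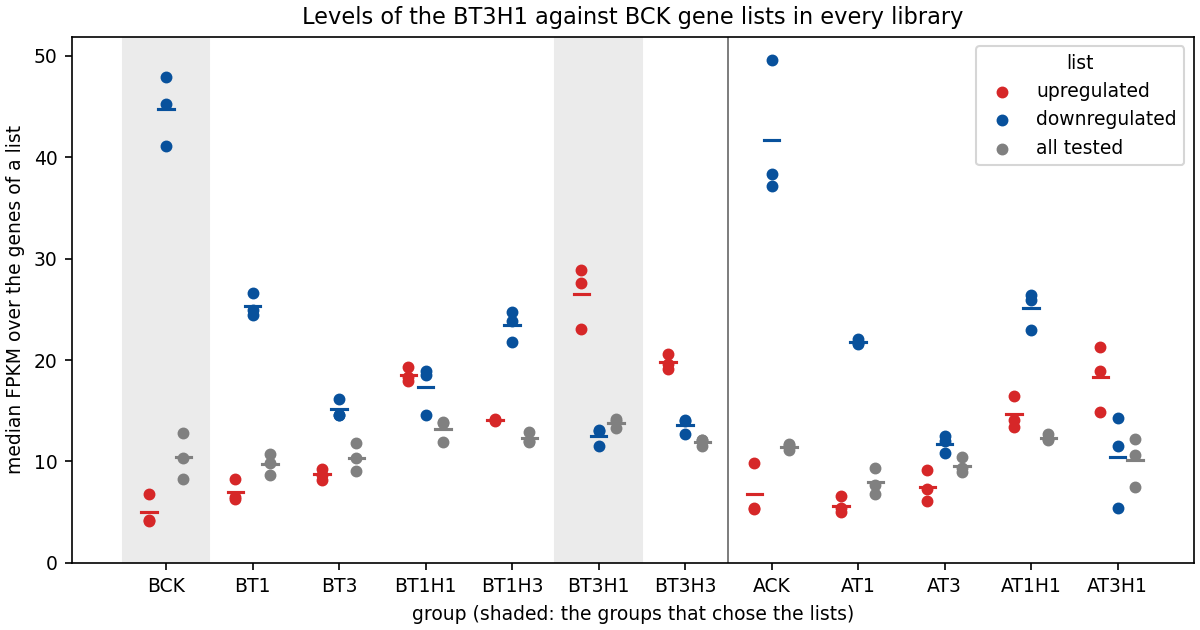
Median FPKM over the 819 upregulated, the 895 downregulated and all tested genes (vertical axis) in each library of the 12 groups (horizontal axis), with dots for libraries and dashes for the mean of 3. In shaded BCK and BT3H1 the levels follow from the choice of genes, and elsewhere the upregulated genes are high in recovery groups (14.5 to 20.4 in DC907) and lower in BT1 and BT3 (7.27 and 9.13).

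The 9311-labelled groups share no library with BT3H1 and BCK. Of the genes upregulated in BT3H1, 787 were tested in AT3H1 against ACK, where their median log2 fold change was 1.33 and 89.7% were above 0, compared with 46.2% of all genes tested in both comparisons. In that comparison 275 of them were upregulated and 1 was downregulated, beside 6.55% upregulated genes over all. Of the downregulated genes 872 were tested, with a median of -1.91, and 373 were downregulated beside 7.70% over all. The 275 shared upregulated genes were 33.6% of the BT3H1 list and 18.5% of the AT3H1 list, and the 373 shared downregulated genes were 41.7% and 21.4%. In AT1H1 against ACK, whose AT1H1 plants were cooled for 1 day only, the medians were 0.91 and -0.87. There edgeR called 1 of 770 genes of the upregulated list and 0 of 884 of the downregulated list, beside 2 genes over all (0.00878%). At an unadjusted p under 0.05 were 409 and 427 of them, beside 5296 of the 22194 genes tested in both comparisons. DESeq2 was not run on this comparison. Because the libraries labelled AT3H1 lay on the DC907 side of the line markers, the first of these comparisons is between libraries with these labels and not surely within 9311.

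The genes that the study had named for cold response were then examined one by one. Of 39 genes edgeR tested 37, and 1 was upregulated and 3 were downregulated, beside 3.54% and 3.87% of all genes. In edgeR 10 of the 37 had an unadjusted p under 0.05, beside 7441 of the 23155 genes tested. DESeq2 called 9 of the 39, beside 5840 of the 32068 genes it was given. The FPKM values of the groups did not overlap for 14 of the 37, beside 44.1% of all tested genes. FPKM is scaled by library totals, on which the median log2 fold change of all tested genes was 0.35 and not near 0. The study had picked these genes on the same libraries, so the list is no independent evidence. With 3 libraries against 3, an exact permutation test, two-sided, cannot go below p = 0.1, and each of the 14 had this value. The genes are given in the order of their roles.

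**Figure D4:**
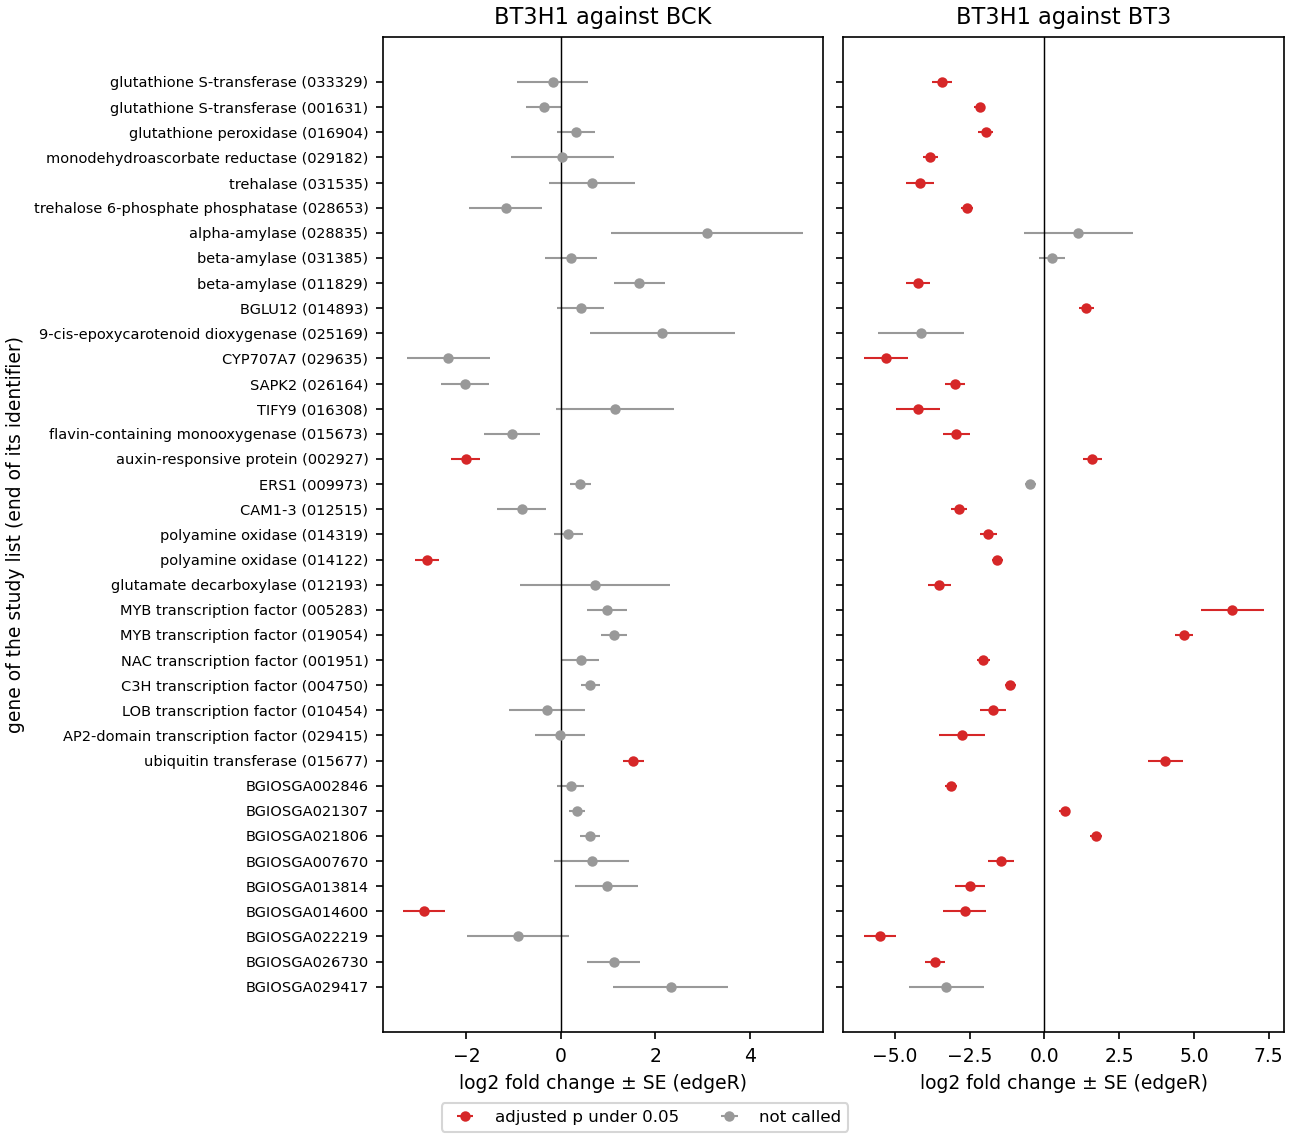
Log2 fold change with its standard error (horizontal axes) of the 37 tested genes of the study's list (vertical axis, end of the identifier in brackets) in BT3H1 against BCK on the left and against BT3 on the right, red where the adjusted p was under 0.05. Against BCK 4 genes are red, and against BT3 33 of the 38 tested genes were called, 26 of them lower after recovery, with CKX8 not drawn.

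In auxin signalling, BGIOSGA002927, an auxin-responsive protein, was downregulated. Its FPKM was 41.6, 69.3 and 39.5 in BCK and 13.9, 13.0 and 20.9 in BT3H1, without overlap. The log2 fold change was -2.01 ± 0.31 (adjusted p = 0.0310, edgeR). At the end of the cold (BT3) it had been lower still, at 4.08 ± 0.694 FPKM (SD, n = 3), and from there it rose by 1.61 ± 0.32 on the log2 scale (adjusted p = 0.00775, edgeR). A flavin-containing monooxygenase, BGIOSGA015673, a family whose plant members include auxin synthesis enzymes, measured 1.59 ± 0.563 FPKM in BCK and 1.03 ± 0.551 in BT3H1 (SD, n = 3), which overlapped.

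In polyamine oxidation the 2 listed genes differed. Polyamine oxidase, which breaks down polyamines and releases hydrogen peroxide, was downregulated for BGIOSGA014122, from 94.3, 132.4 and 88.4 FPKM in BCK to 16.5, 18.7 and 22.3 in BT3H1 (log2 fold change -2.83 ± 0.26, adjusted p = 0.0165, edgeR). Every BT3H1 library was below every BCK library. In BT3 the gene stood at 44.5 ± 1.54 FPKM (SD, n = 3), so BT3H1 was also below the end of the cold (log2 fold change -1.58 ± 0.19, adjusted p = 0.00144, edgeR). The other polyamine oxidase, BGIOSGA014319, measured 96.8, 160.2 and 88.5 in BCK and 214.1, 138.7 and 146.7 in BT3H1, and the groups overlapped (log2 fold change 0.16 ± 0.30). Glutamate decarboxylase, BGIOSGA012193, which makes GABA from glutamate, measured 0.601, 36.9 and 0.151 in BCK and 34.1, 25.2 and 13.5 in BT3H1. BCK replicate 2 alone was as high as the recovered libraries, and the change was not called (log2 fold change 0.73 ± 1.58). A direct test of the difference between the 2 polyamine oxidases was not made.

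Ubiquitin transferase, BGIOSGA015677, was the 1 listed gene that was upregulated. It measured 44.4, 45.2 and 51.4 FPKM in BCK and 192.6, 179.2 and 170.5 in BT3H1, with no overlap and a small spread in both groups. The log2 fold change was 1.53 ± 0.22 (adjusted p = 0.0267, edgeR), and 1.94 with library totals. In BT3 it had been at 8.12 ± 5.63 FPKM, and in BT3H3 it reached 1002 ± 508 (SD, n = 3). In the fit of all 36 libraries its adjusted p was 0.19, the highest of a range from 1.28e-08 over the alternatives with all libraries.

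BGIOSGA014600, which has primers but no name, was downregulated. Its FPKM was 6.21, 7.23 and 11.3 in BCK and 1.60, 1.06 and 1.68 in BT3H1, with no overlap (log2 fold change -2.90 ± 0.44, adjusted p = 0.0295, edgeR). Without BCK replicate 3 the adjusted p was 0.051. The other 3 called genes of the list kept an adjusted p under 0.05 when any BCK library was left out, and all 4 lost it in edgeR when any BT3H1 library was left out (adjusted p from 0.068 to 0.17).

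**Figure D5:**
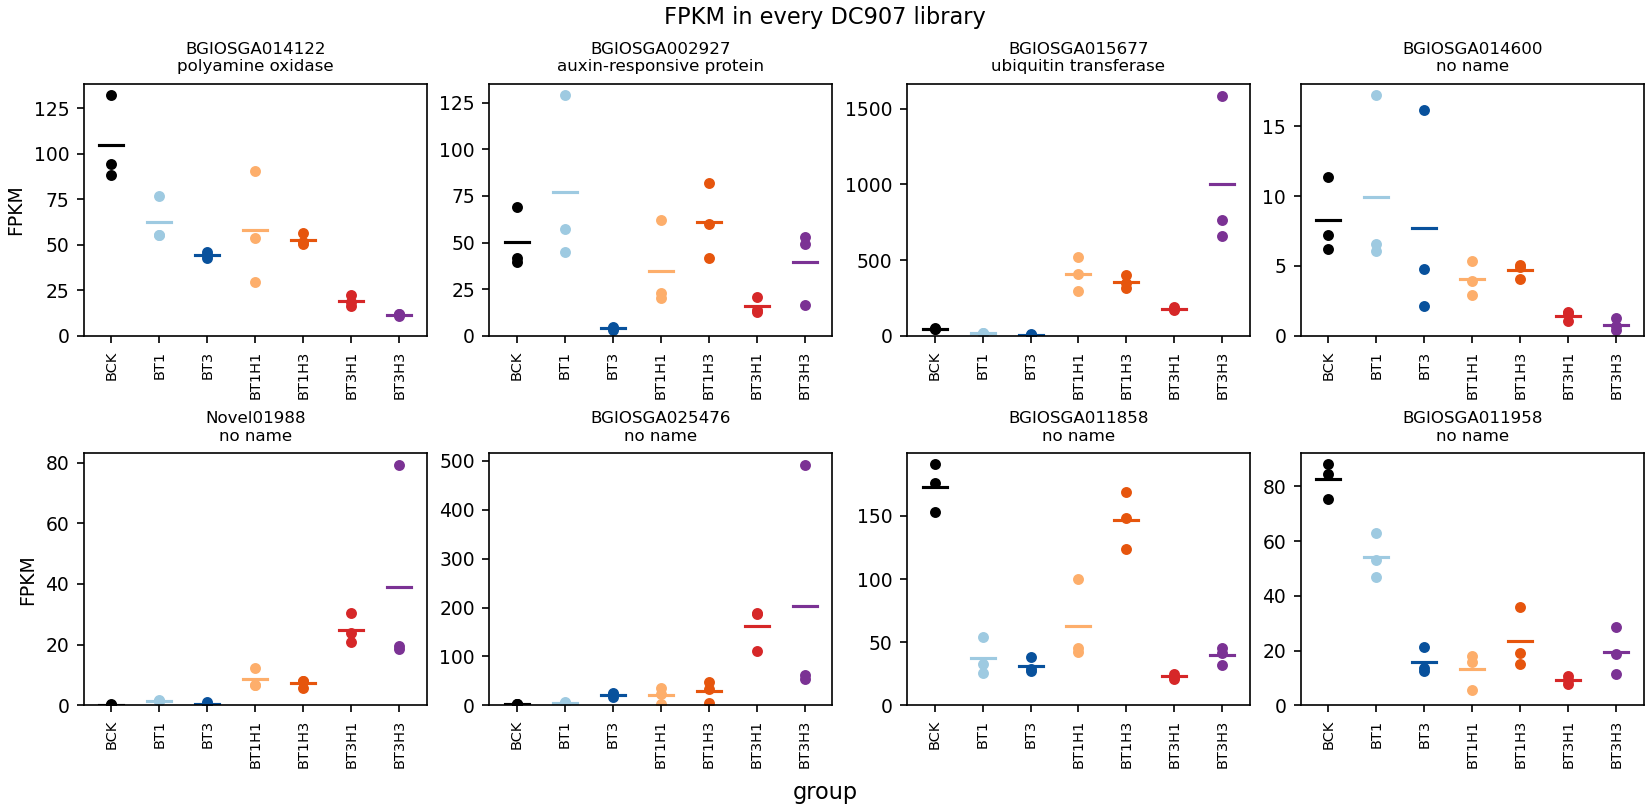
FPKM (vertical axes, each from 0) in every library of the 7 DC907 groups (horizontal axes) for the 4 called genes of the study's list and the 4 unnamed genes with the smallest p, with dots for libraries and dashes for means. BGIOSGA015677 lies at 170.5 to 192.6 in BT3H1 and at 44.4 to 51.4 in BCK, and BGIOSGA014122 at 16.5 to 22.3 and at 88.4 to 132.4.

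Of the 3 listed genes of abscisic acid metabolism and signalling edgeR called 0 against the control, with 2 at an unadjusted p under 0.05, and DESeq2 called 2. SAPK2 (BGIOSGA026164), a protein kinase of abscisic acid signalling, measured 239.5, 114.2 and 92.0 FPKM in BCK and 66.0, 52.6 and 32.3 in BT3H1. All BT3H1 libraries lay below all BCK libraries, but the adjusted p was 0.0624 in edgeR (log2 fold change -2.03 ± 0.51) and 0.00221 in DESeq2. Over the alternative settings that kept all libraries the adjusted p of SAPK2 (BGIOSGA026164) lay between 0.00153 and 0.0888. CYP707A7 (BGIOSGA029635), an enzyme that inactivates abscisic acid, measured 9.10, 2.60 and 1.67 in BCK and 2.11, 1.05 and 0.476 in BT3H1, with overlap (log2 fold change -2.38 ± 0.89, adjusted p = 0.128 in edgeR and 0.0299 in DESeq2). Over the alternatives with all libraries the adjusted p of BGIOSGA029635 lay between 0.0299 and 0.161. A 9-cis-epoxycarotenoid dioxygenase (BGIOSGA025169), of the first committed step of abscisic acid synthesis, was at 33.1 in BT3H1 replicate 3 and at 1.56 and 0.736 in the other BT3H1 libraries. BT3H1 replicate 3 thus set its mean, and without it the log2 fold change of 2.15 ± 1.53 became -1.31.

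For the other hormones edgeR called 0 of the 2 genes tested against the control, with 0 at an unadjusted p under 0.05, and DESeq2 called CKX8. ERS1 (BGIOSGA009973), an ethylene receptor, measured 35.2, 52.9 and 31.2 FPKM in BCK and 67.9, 74.1 and 65.2 in BT3H1, without overlap (log2 fold change 0.41 ± 0.22, adjusted p = 0.237, edgeR). TIFY9 (BGIOSGA016308), of the family of jasmonate repressors, varied from 1.29 to 10.2 within BT3H1. Lipoxygenase BGIOSGA037588, of a family that starts jasmonate synthesis, and CKX8 (BGIOSGA016782), which degrades cytokinin, did not pass the filter on low counts. CKX8 measured 0, 0.803 and 1.68 FPKM in BCK and 0, 0.0381 and 0 in BT3H1, and DESeq2, which used no such filter, gave CKX8 (BGIOSGA016782) an adjusted p of 0.0182. Lipoxygenase was at 0 FPKM in all BCK libraries and at 0.0620 in a single BT3H1 library.

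Of the 6 listed starch and sugar genes edgeR called 0 against the control, with 1 at an unadjusted p under 0.05 and 1 called by DESeq2. Beta-amylase BGIOSGA011829, which releases maltose from starch, measured 20.6, 11.6 and 6.71 FPKM in BCK and 81.4, 54.0 and 33.7 in BT3H1. The groups did not overlap, yet the adjusted p was 0.0983 in edgeR (log2 fold change 1.66 ± 0.54). It was 0.0301 in DESeq2 and 0.0485 in edgeR with library totals, and 0.172 at most under the other settings with all libraries. The other beta-amylase, BGIOSGA031385, measured 97.5, 74.2 and 20.3 in BCK and 95.5, 110.9 and 94.3 in BT3H1 (log2 fold change 0.22 ± 0.55). Trehalase (BGIOSGA031535), which splits trehalose into glucose, measured 5.64 ± 7.20 in BCK and 10.8 ± 6.51 in BT3H1, and trehalose 6-phosphate phosphatase (BGIOSGA028653), which forms trehalose, measured 11.4 ± 9.90 and 7.06 ± 1.10 (SD, n = 3). Alpha-amylase (BGIOSGA028835) was at 18.4 in BT3H1 replicate 3 and below 1 in the other 5 libraries.

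Of the 4 listed antioxidant genes 0 were called against the control by edgeR or DESeq2, 0 had an unadjusted p under 0.05, and their groups overlapped. DESeq2 gave no adjusted p for BGIOSGA029182. Monodehydroascorbate reductase (BGIOSGA029182), which regenerates ascorbate, measured 10.4, 163.5 and 6.27 FPKM in BCK and 76.8, 63.9 and 75.1 in BT3H1. BCK replicate 2 was above all recovered libraries and the other BCK libraries were below them. Glutathione peroxidase (BGIOSGA016904), which reduces peroxides, measured 246.0, 286.5 and 101.2 in BCK and 416.8, 345.1 and 281.6 in BT3H1 (log2 fold change 0.32 ± 0.40). Glutathione S-transferases conjugate glutathione to reactive compounds, and the 2 of the list, BGIOSGA033329 and BGIOSGA001631, had log2 fold changes of -0.17 ± 0.75 and -0.35 ± 0.39. CAM1-3 (BGIOSGA012515), a calmodulin of calcium signalling, measured 195.1 ± 111.2 in BCK and 150.5 ± 46.4 in BT3H1 (SD, n = 3).

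Of the 6 listed transcription factors edgeR called 0 against the control, with 2 at an unadjusted p under 0.05 and 1 called by DESeq2, although 4 had groups that did not overlap. MYB gene BGIOSGA019054 measured 93.9, 168.7 and 152.9 FPKM in BCK and 449.8, 404.0 and 328.9 in BT3H1 (log2 fold change 1.13 ± 0.27, adjusted p = 0.0553, edgeR, and between 0.000584 in DESeq2 and 0.162 over the alternatives with all libraries). MYB gene BGIOSGA005283 measured 108.2, 130.8 and 239.8 in BCK and 581.0, 384.3 and 295.5 in BT3H1 (log2 fold change 0.98 ± 0.42, adjusted p = 0.166, edgeR). For both, the lowest recovered library exceeded the highest control. The NAC gene BGIOSGA001951 measured 44.5 ± 19.3 in BCK and 79.5 ± 10.6 in BT3H1, and the C3H gene BGIOSGA004750 measured 13.9 ± 2.44 and 28.2 ± 4.47 (SD, n = 3). The LOB and AP2-domain genes, BGIOSGA010454 and BGIOSGA029415, overlapped. Among the listed genes without a name, BGIOSGA021307, BGIOSGA021806 and BGIOSGA026730 were higher in BT3H1 without overlap. They were not called (adjusted p = 0.219, 0.108 and 0.220, edgeR). BGIOSGA002846, BGIOSGA007670, BGIOSGA013814, BGIOSGA022219 and BGIOSGA029417 overlapped and were not called either.

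The comparison with BT3 asked what had changed in the first day after rewarming. Here 5625 of 23492 tested genes were higher in BT3H1 (23.9%) and 5623 were lower (23.9%, edgeR, adjusted p under 0.05), and without BT3 replicate 3 the total of 11248 became 7452. With library totals 7621 were higher and 4048 lower. Of the listed genes 38 were tested, 26 were lower, 7 were higher and 5 were not called. All 4 antioxidant genes were lower, with log2 fold changes from -3.82 to -1.97. Monodehydroascorbate reductase BGIOSGA029182 fell from 793 ± 81.8 FPKM in BT3 to 71.97 ± 6.998 in BT3H1 (SD, n = 3), a difference of -3.82 ± 0.24 on the log2 scale (adjusted p = 0.000510, edgeR). The beta-amylase BGIOSGA011829 fell from 831 ± 211 to 56.4 ± 23.9 (log2 fold change -4.23 ± 0.41, adjusted p = 0.000860, edgeR). Trehalase BGIOSGA031535, glutamate decarboxylase BGIOSGA012193, CAM1-3 (BGIOSGA012515), SAPK2 (BGIOSGA026164), CYP707A7 (BGIOSGA029635) and TIFY9 (BGIOSGA016308) also fell, with log2 fold changes of -4.16, -3.52, -2.87, -2.99, -5.31 and -4.23. CKX8 (BGIOSGA016782) was at 8.01 ± 3.44 in BT3 and at or near 0 in BT3H1.

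The genes that rose after rewarming included both MYB genes and the ubiquitin transferase. BGIOSGA005283 measured 9.41, 0.933 and 1.45 FPKM in BT3 and 295.5 to 581.0 in BT3H1 (log2 fold change 6.28 ± 1.06, adjusted p = 0.00429, edgeR). BGIOSGA019054 measured 14.8, 9.69 and 10.8 in BT3 and 328.9 to 449.8 in BT3H1 (log2 fold change 4.67 ± 0.31, adjusted p = 0.000529, edgeR). Ubiquitin transferase BGIOSGA015677 measured 14.5, 3.78 and 6.11 in BT3 (log2 fold change 4.05 ± 0.58, adjusted p = 0.00261, edgeR). For all 3 genes the BT3 libraries were lower than those of BCK as well as those of BT3H1. After 1 day of cold (BT1) BGIOSGA019054 measured 121.4 to 357.3 FPKM, which overlapped BCK and BT3H1. BGIOSGA005283 (27.3 to 92.6) and BGIOSGA015677 (12.8 to 19.6) were below BCK in BT1 too. BGLU12 (BGIOSGA014893), of the beta-glucosidases that release sugars from glucosides, rose from 38.3 ± 5.90 to 130.5 ± 28.0 FPKM (SD, n = 3, log2 fold change 1.40 ± 0.26, adjusted p = 0.00585, edgeR). BT3H1 enters both this comparison and the one with BCK, so the fold changes are not independent of each other.

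The comparison with BT1H1 asked how far 3 days and 1 day of preceding cold differed on the same recovery day. Only 82 of 23447 genes were called (0.350%), with 35 higher and 47 lower in BT3H1 (edgeR, adjusted p under 0.05), and 3909 had an unadjusted p under 0.05. DESeq2 called 1793. Without BT1H1 replicate 1 the edgeR count was 11, and without any other of the 6 libraries it was 0. Of the 36 listed genes tested 0 were called in edgeR, with 11 at an unadjusted p under 0.05 and 8 called by DESeq2. Polyamine oxidase BGIOSGA014122 measured 29.8, 53.8 and 90.4 FPKM in BT1H1 and 16.5, 18.7 and 22.3 in BT3H1, without overlap (log2 fold change -1.61 ± 0.44, adjusted p = 0.163, edgeR). SAPK2 (BGIOSGA026164) measured 88.7, 158.0 and 184.6 in BT1H1, above the 32.3 to 66.0 of BT3H1 (log2 fold change -1.54 ± 0.37, adjusted p = 0.133, edgeR).

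The comparison with BT3H3 covered the following recovery days. From BT3H1 to BT3H3 1048 of 22747 genes rose (4.61%) and 856 fell (3.76%, edgeR, adjusted p under 0.05). With library totals 653 rose and 1263 fell. The total of 1904 was 1 without BT3H1 replicate 1 or BT3H3 replicate 2, 15 without BT3H1 replicate 2, 31 without BT3H3 replicate 1, 814 without BT3H1 replicate 3 and 1247 without BT3H3 replicate 3. MYB gene BGIOSGA005283 rose further to 2975, 1960 and 1166 FPKM in BT3H3 (log2 fold change 2.42 ± 0.40, adjusted p = 0.0261, edgeR). The call of BGIOSGA005283 was kept in 2 of 4 alternatives with all libraries (adjusted p up to 0.0651) and in 1 of 6 fits without a library. Ubiquitin transferase BGIOSGA015677 rose to 656.3, 765.1 and 1585 (log2 fold change 2.64 ± 0.39, adjusted p = 0.0228, edgeR), and the call of BGIOSGA015677 was kept in 3 of 4 such alternatives (adjusted p up to 0.0708) and in 1 of 6 fits without a library. The NAC gene BGIOSGA001951 rose by 0.73 ± 0.17 on the log2 scale (adjusted p = 0.0481, edgeR), a call that was lost with library totals (adjusted p = 0.0836, within 0.0049 to 0.228 over the alternatives with all libraries) and in all 6 fits without a library. Monodehydroascorbate reductase BGIOSGA029182 fell by 0.72 on the log2 scale (adjusted p = 0.0499, edgeR), a call kept in 2 of 4 alternatives (adjusted p up to 0.602) and in 0 of 6 fits without a library. Polyamine oxidase BGIOSGA014122 measured 12.1, 11.9 and 10.7 in BT3H3, below BT3H1, and this change was not called (adjusted p = 0.0938, edgeR).

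The change from the control was compared between DC907 and the libraries labelled 9311 as an interaction. Of 24717 genes 6 were called (0.0243%), all with a smaller change in DC907, and 0 of the 38 listed genes tested were among them, with 17 at an unadjusted p under 0.05 and 5 called by DESeq2. DESeq2 called 793 of 33731 genes in all, and in edgeR 3141 of the 24717 had an unadjusted p under 0.05. The 6 genes had a mean FPKM of 0 to 0.123 in ACK and of 10.9 to 69.1 in AT3H1, whereas in DC907 they measured 17.3 to 144.3 in BCK and 24.5 to 82.1 in BT3H1. All 6 were thus near 0 only in ACK among the 4 groups. In AT3H1 3 of them (Novel01327, Novel01555 and Novel01897) lay at 10.9 to 13.8, below both DC907 groups. BGIOSGA010494 (69.1) was below both as well, and BGIOSGA012745 (24.71) was just under its BCK mean (24.79). BGIOSGA010297 (27.2) lay between BT3H1 and BCK. Without AT3H1 replicate 3 the count was 157, without ACK replicate 1 it was 18, and without AT3H1 replicate 1 it was 11.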

How the data were processed

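Deposited raw counts and FPKM were used. The authors cleaned the reads, mapped them with HISAT2 to the indica genome of Ensembl Plants and predicted new genes with Cufflinks. The versions of these tools are not given in the sources used here. The counting program, the strand setting and the handling of reads that map to several places are not given in the sources used here either, so genes with near-identical copies are uncertain. The deposited FPKM values matched counts divided by gene length and library total (largest relative deviation 1.2e-07). Samples were grouped by GEO's labels, and every file column belonged to a sample.

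DEGs were computed with edgeR 4.0.16 in R 4.3.3 (TMM, filterByExpr, robust quasi-likelihood fit, Benjamini-Hochberg adjusted p under 0.05) on the libraries of the groups compared, 3 per group, without a block, and DESeq2 1.42.0 was an alternative. The SE of a log2 fold change was derived from it and the quasi-likelihood F. The fits were tested on simulated data. The interaction used 12 libraries. FPKM values of single genes were compared by an exact permutation test. Library totals in place of TMM factors and DESeq2 without each library were added after seeing the data. The groups, the genes named by the study (text and primer list) and the tests were chosen with earlier results of these data known. The 2 upregulated and 2 downregulated unnamed genes are those with the smallest p among DEGs with an absolute log2 fold change of at least 1 and no overlap of FPKM, and BGIOSGA014600 was named as 1 of the 4 called genes of the list. The 78 and 108 line markers differed by at least 2 in log2(CPM + 0.1) with no overlap. Precision is set by the spread among 3 libraries and not by depth.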

Additional observations from a re-analysis of the deposited data

Results flagged for a closer look

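The difference between DC907 and the libraries labelled 9311 in the change from the control passed the test for 6 genes, all with a smaller change in DC907. Their log2 differences (DC907 minus labelled 9311) lay between -11.62 and -8.34, set by a mean FPKM of at most 0.123 in ACK. Of the line markers 82.1% to 96.2% lay on the DC907 side in the libraries labelled AT3H1, and the part of this in the 6 calls was not tested. No group had more than 3 libraries, so no search for single outlying values was made.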

How the results depend on the processing

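The count of 1714 DEGs in BT3H1 against BCK became 5840 with DESeq2, 6558 in a fit of all 21 DC907 libraries, 4620 in a fit of all 36 and 2630 with library totals. It stayed within 1.5 times with the size factors of DESeq2 in edgeR (1655), without the count filter (1146), with a limit of 10 counts in each library (2015), with a log2 fold change of at least 1 (1661) and without robust dispersions (1828). Leaving out a library gave 0 to 7758 over both tools, where DESeq2 gave the highest. The replicate number as a block gave 0 genes (5714 at an unadjusted p under 0.05). The deviations of same-numbered BT3H1 and BCK libraries correlated by 0.21, -0.22 and 0.06 for replicates 1, 2 and 3. Libraries with different numbers were not compared, so these values cannot decide whether the numbers pair the libraries. The block also gave 0 genes for BT3H1 against BT1H1 and for BT3H3 against BT3H1 (3002 and 5752 at an unadjusted p under 0.05), and 9239 for BT3H1 against BT3. BT3H1 against BT3 ranged from 7452 to 11719 without a library. BT3H1 against BT1H1 gave 1793 with DESeq2, 196 with the 21 libraries and 0 to 11 without a library, and BT3H3 against BT3H1 gave 4482, 941 and 1 to 1247. The interaction gave 793 with DESeq2, 440 with the 36 libraries and 4 to 157 without a library. The cause of these differences was not tested.

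For the 8 called genes named against BCK no alternative changed the direction. Among the genes that were not called, the log2 fold change against BCK changed sign with the block for BGIOSGA033329 (0.36), BGIOSGA028835 (-0.75) and BGIOSGA010454 (0.15). With library totals it did so for BGIOSGA033329 (0.099), BGIOSGA001631 (0.020), BGIOSGA010454 (0.011) and BGIOSGA029415 (0.38), with no filter for BGIOSGA029415 (0.0056) and in the fit of 21 libraries for BGIOSGA029182 (-0.0067). Leaving out a library gave -0.57 to 1.16 for BGIOSGA033329, -0.046 to 0.59 for BGIOSGA016904, -0.51 to 2.56 for BGIOSGA029182, -2.79 to 3.69 for BGIOSGA028835, -0.25 to 0.84 for BGIOSGA031385, -1.34 to 3.29 for BGIOSGA025169, -0.062 to 0.31 for BGIOSGA014319, -0.80 to 0.15 for BGIOSGA010454, -0.82 to 0.27 for BGIOSGA029415 and -1.68 to 0.97 for BGIOSGA022219. Against BT3, BGIOSGA028835 changed to -1.44 with the block and ranged from -4.57 to 2.75 without a library, and BGIOSGA031385 ranged from -0.13 to 0.90. With a mean FPKM of 0.5 as the limit 24011 genes were counted in BT3H1 and 23688 in BCK, and with an FPKM of 1 in all 3 libraries 20052 and 18286.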
